A study of Mus musculus with 4 samples.

Results

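The genes described here encode the respiratory chain: every gene in the deposited matrices whose symbol began with mt-Nd, mt-Co, mt-Atp, mt-Cytb, Ndufa, Ndufb, Ndufc, Ndufs, Ndufv, Uqcr, Cox4i, Cox5, Cox6, Cox7, Cox8 or Atp5. This rule took 103 of 32285 genes, of which 13 lie on the mitochondrial genome and 90 in the nucleus. By role they were 7 mitochondrial and 37 nuclear genes of complex I, 8 complex I assembly factors that share the Nduf prefix, 1 mitochondrial and 8 nuclear genes of complex III, 3 and 18 of complex IV, 2 and 17 of complex V, and Ndufa4 with its relative Ndufa4l2. The cells came from livers profiled by droplet single-cell RNA sequencing (10x Genomics). There were 2 Control libraries and 2 libraries of the genotype Cyr61 KO (KO 1 and KO 2). All mice were males aged 24 weeks after 12 weeks on a NASH diet, which brings on a fatty, inflamed liver, and all, Controls included, were of the strain Cyr61fl/fl, with a floxed Cyr61 gene. In which cells the gene was removed, and by what Cre or other agent, is not given in the sources used here. Per the labels' protocols the livers had been stored in serum and DMSO before they were thawed and digested, and a column then removed dead cells. Whether a library stands for 1 animal is not said in the labels, and p-values therefore cover the spread among libraries, which may be technical.

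The respiratory chain passes electrons from NADH and succinate through complexes I to IV in the inner mitochondrial membrane to oxygen, and pumps protons as it does so. Complex V, the ATP synthase, lets the protons flow back and makes ATP. Most subunits are encoded in the nucleus, made in the cytosol and imported, while the mitochondrial genome holds a small set of core subunits transcribed inside the organelle, so a working complex needs both genomes. Neutrophils are known for relying mainly on glycolysis, and dividing lymphocytes for building up mitochondria.

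The target gene was read first. Over all barcodes Cyr61, listed as Ccn1, had 184 and 149 UMIs (unique molecular identifiers, the count of captured RNA molecules) in Control 1 and 2, and 0 and 12 in KO 1 and 2. The libraries held 4718, 7090, 7157 and 5065 cells after filters, in the order Control 1, Control 2, KO 1, KO 2, and this order holds for every run of 4 values below. Their median depth was 1225, 2241, 1913 and 2869 UMIs per cell, so Control 1 was the shallowest and KO 2 the deepest. Of 24645 distinct barcodes, 74 occurred in more than 1 library. Cells were placed in classes by marker genes, a cell needing at least 2 detected markers of 1 list and too few of any other (8 for hepatocyte-like cells). The exception was cells that met both the T and the natural killer or innate lymphoid gate, which counted as T cell-like. Lymphocytes with at least 3 markers of division formed the cycling class. Most cells were lymphocytes: T cell-like cells numbered 1637, 3050, 2658 and 2257, while hepatocyte-like cells, the main cells of liver, numbered 1, 2, 10 and 6. In no gate fell 1145, 918, 868 and 404 cells, with 3.11%, 8.05%, 7.61% and 9.37% of UMIs from the mitochondrial members, and in several gates 267, 449, 329 and 224 cells. These were left out. Tests were made in the 7 of 11 classes that reached 20 cells in each library: T, B, natural killer or innate lymphoid (NK), monocyte and macrophage, conventional dendritic, neutrophil and cycling lymphocyte. Plasmacytoid dendritic, hepatocyte, stromal or mesothelial and endothelial classes gave values only. After filters the stromal or mesothelial class held cells in the Control libraries only. The part of this absence in the Cyr61 counts of KO was not tested.

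Within each tested class, the share of UMIs from the 13 mitochondrial members varied more over all libraries than that from the 90 nuclear members. In T cell-like cells the mitochondrial share was 2.25% and 3.56% in Control and 3.98% and 4.77% in KO. The nuclear share of the same cells was 2.03% and 1.87% in Control and 1.82% and 1.64% in KO. Both KO libraries thus lay above both Control libraries for the mitochondrial sum and below them for the nuclear sum. Group means were 2.90% ± 0.925 and 4.38% ± 0.560 (SD, n = 2) for the mitochondrial and 1.95% ± 0.113 and 1.73% ± 0.128 for the nuclear sum. Depth moved with these values, at medians of 1448, 2768, 2512 and 3627 UMIs per T cell-like cell. Among cells of 1000 to 3000 UMIs, a limit chosen after seeing the data, the mitochondrial share was 2.16%, 4.12%, 4.28% and 6.74% and the nuclear share 2.05%, 1.83%, 1.79% and 1.52%, in the same order as over all cells. The log2 ratio of the KO to the Control mean was 0.59 for the mitochondrial sum, 0.30 without Control 1 and 0.96 without Control 2, and -0.17 for the nuclear sum, from -0.25 to -0.10 when a library was left out.

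**Figure D1:**
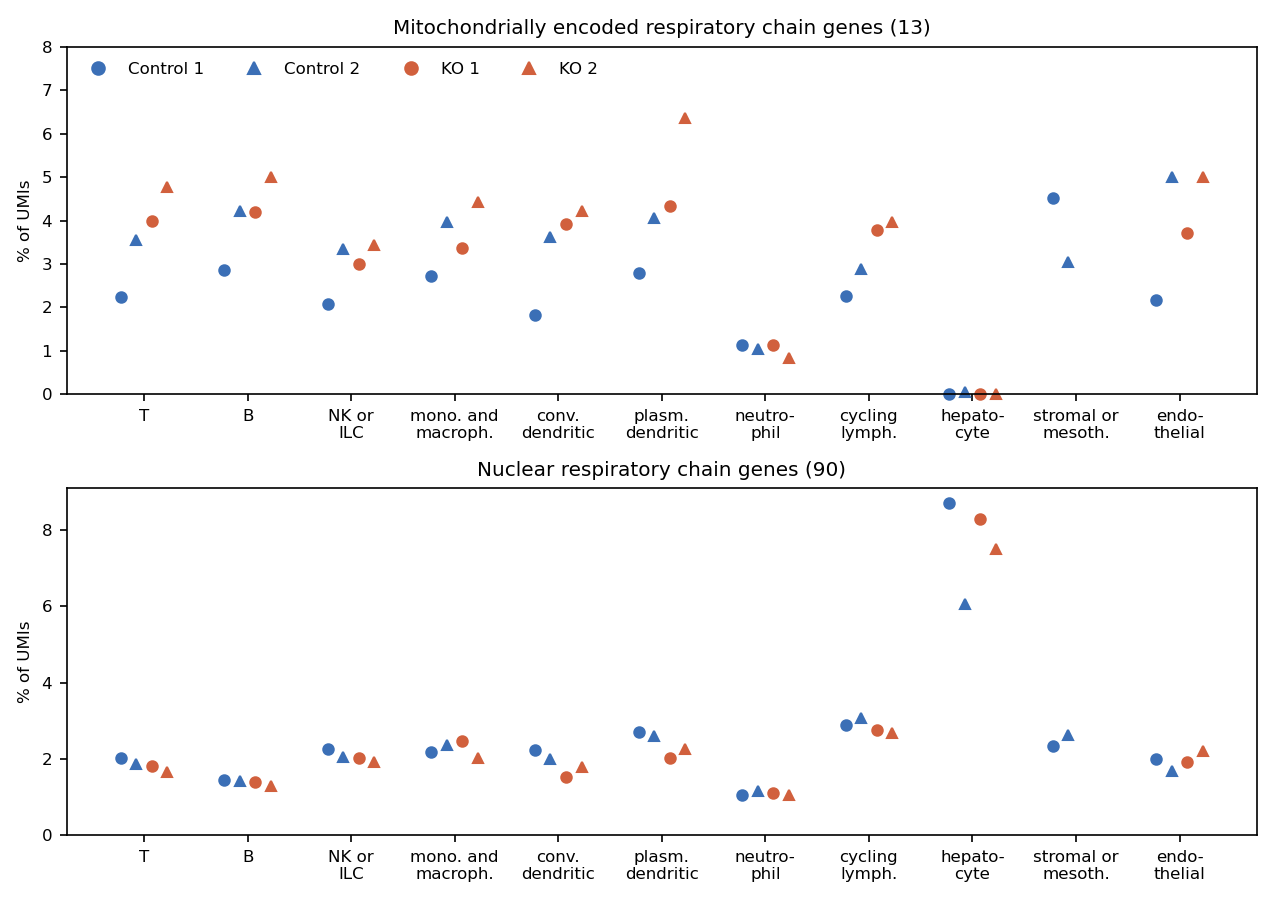
Share of UMIs (y axis, percent) of the 13 mitochondrially encoded genes (top) and the 90 nuclear genes (bottom) of the respiratory chain in 11 cell classes (x axis); each point is 1 library, blue for Control and orange for KO, circles for replicate 1 and triangles for replicate 2. Control 1 is lowest for the mitochondrial sum in T cell-like cells (2.25%), neutrophil-like cells lie near 1% for both sums, and hepatocyte-like cells combine a mitochondrial share near 0 with nuclear shares of 6.07% to 8.72%.

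The same split between the genomes appeared in conventional dendritic-like and cycling lymphocyte-like cells. In conventional dendritic-like cells the mitochondrial share was 1.82% and 3.63% in Control and 3.92% and 4.21% in KO, and the nuclear share 2.22%, 2.0%, 1.53% and 1.78%. In cycling cells it was 2.26%, 2.88%, 3.77% and 3.96% for the mitochondrial and 2.89%, 3.06%, 2.76% and 2.67% for the nuclear sum. The groups did not overlap in either class for these sums over cells. In cycling cells the median nuclear share per cell did overlap, at 2.66%, 2.43%, 2.69% and 2.5%. In conventional dendritic-like cells other measures moved with the libraries: ribosomal protein genes took 22.6%, 21.5%, 17.0% and 20.2% of UMIs, nuclear retained RNAs 4.83%, 3.20%, 9.55% and 4.01%, and the 11 cycling markers together from 34.8 to 1213 CPM. Their part in the result was not tested. In B cell-like cells (mitochondrial 2.85%, 4.23%, 4.21% and 5.01%) and NK-like cells (2.09%, 3.34%, 3.01% and 3.43%) the mitochondrial shares overlapped between groups. Their nuclear shares did not: they were 1.44%, 1.41%, 1.38% and 1.27% in B and 2.26%, 2.06%, 2.03% and 1.92% in NK-like cells. Monocyte and macrophage-like cells overlapped for both sums, with mitochondrial shares of 2.71%, 3.96%, 3.37% and 4.43% and nuclear shares of 2.18%, 2.35%, 2.46% and 2.02%. Neutrophil-like cells also overlapped, at 1.12%, 1.05%, 1.13% and 0.831% for the mitochondrial and 1.04%, 1.15%, 1.10% and 1.06% for the nuclear sum. The plasmacytoid dendritic-like cells, 32, 20, 8 and 10 in number, had mitochondrial shares of 2.80%, 4.07%, 4.34% and 6.36% and nuclear shares of 2.69%, 2.61%, 2.03% and 2.25%. Exact 95% binomial intervals of a share cover counting error only: in T cell-like cells of Control 1 the interval of the mitochondrial share was 2.23% to 2.27%. In neutrophil-like cells the intervals of the mitochondrial share overlapped between the Control libraries (1.06% to 1.19% and 1.01% to 1.09%).

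How far the classes differ from one another was asked next. Each class was set against the mean of the other tested classes with edgeR's quasi-likelihood test, with the library as a block and Benjamini-Hochberg adjustment over 7989 genes, and 92 of the 103 members could be tested. These contrasts use each library as a sample of every class, all libraries of both groups together. Values given as CPM are UMIs per 1000000 UMIs of that class and library. Counts do not separate near-identical copies, so values of genes with retrocopies elsewhere in the genome are uncertain to that extent.

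In neutrophil-like cells most respiratory chain genes were lower than in the other classes. Of 92 members 64 were lower and 2 higher, where 24.6% of all genes tested were lower and 22.2% higher. All 13 mitochondrial genes were lower, with a median log2 difference of -1.52, beside -0.70 for the 79 nuclear members tested and -0.31 for all genes. Complex V stood at 14 of 17 nuclear genes lower, complex III at 7 of 8, complex I at 20 of 37 (1 higher) and complex IV at 7 of 11. Atp5g2, a gene for the c subunit that forms the rotor ring of the ATP synthase, was at 67.7, 73.0, 91.1 and 82.2 CPM in neutrophil-like cells, on 7, 22, 10 and 7 UMIs, and at a mean of 499 CPM in the other classes. That is a log2 difference of -2.38 (SE 0.20, edgeR adjusted p = 3.1e-13). Atp5g1, which encodes the same protein with another import sequence, and Atp5o, a stalk subunit, differed by -2.18 (SE 0.29) and -2.25 (SE 0.26). Ndufa9, a complex I subunit, was called lower on only 0, 2, 0 and 1 UMIs in neutrophil-like cells, and its fold is not given. The core subunit genes mt-Co1 of complex IV (3220, 3045, 3351 and 2431 CPM) and mt-Cytb of complex III (899, 936, 729 and 799 CPM) overlapped between Control and KO for mt-Co1 and were lower in both KO libraries for mt-Cytb. Against the other classes they differed by -1.20 (SE 0.14) and -1.53 (SE 0.15). Ndufb9, a complex I subunit, went the other way, with 174, 212, 228 and 305 CPM against 173 in the other classes and a log2 difference of 0.70 (SE 0.17, edgeR adjusted p = 0.00087). The assembly factor Ndufaf7, a methyltransferase acting on a complex I subunit, was the other higher member (1.12, SE 0.37), on 6, 7, 4 and 2 UMIs. This call held in 12 of 16 alternatives, over which the log2 difference ran from 0.67 to 1.39. Among those where it was lost was the fit without Control 1, at 0.81.

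Cycling lymphocyte-like cells had most nuclear members higher. Of 79 nuclear members 65 were higher and 1 lower (26.7% and 17.7% of all genes), with a median of 0.72. Of the 13 mitochondrial genes 0 passed in edgeR, 0 had an unadjusted p below 0.05, and their median was 0.03, while DESeq2 called 2 higher. Complex V had 16 of 17 nuclear genes higher, complex IV 10 of 11, complex III 7 of 8 and complex I 29 of 37. Atp5g3, the third gene for the same c subunit, was at 339, 450, 402 and 385 CPM, against 156 elsewhere, with a log2 difference of 1.36 (SE 0.12, edgeR adjusted p = 3.2e-12). Ndufa4, first named as a complex I subunit and now placed in complex IV, was at 824, 865, 836 and 727 CPM against 358, a difference of 1.15 (SE 0.11). Cox5a, a nuclear subunit near the catalytic core of complex IV, was at 556, 571, 341 and 483 CPM against 213, a difference of 1.10 (SE 0.12). Each of the 4 libraries lay above the mean of the other classes for all 3 genes. Ndufa6, a complex I subunit, was the 1 lower gene (-0.40, SE 0.12). With relative log expression size factors in place of TMM the median of all genes moved from 0.04 to 0.18 in this class, and 71 members were higher and 1 lower. These cells were also deep, with medians of 2823, 7990, 4776 and 8425 UMIs.

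**Figure D2:**
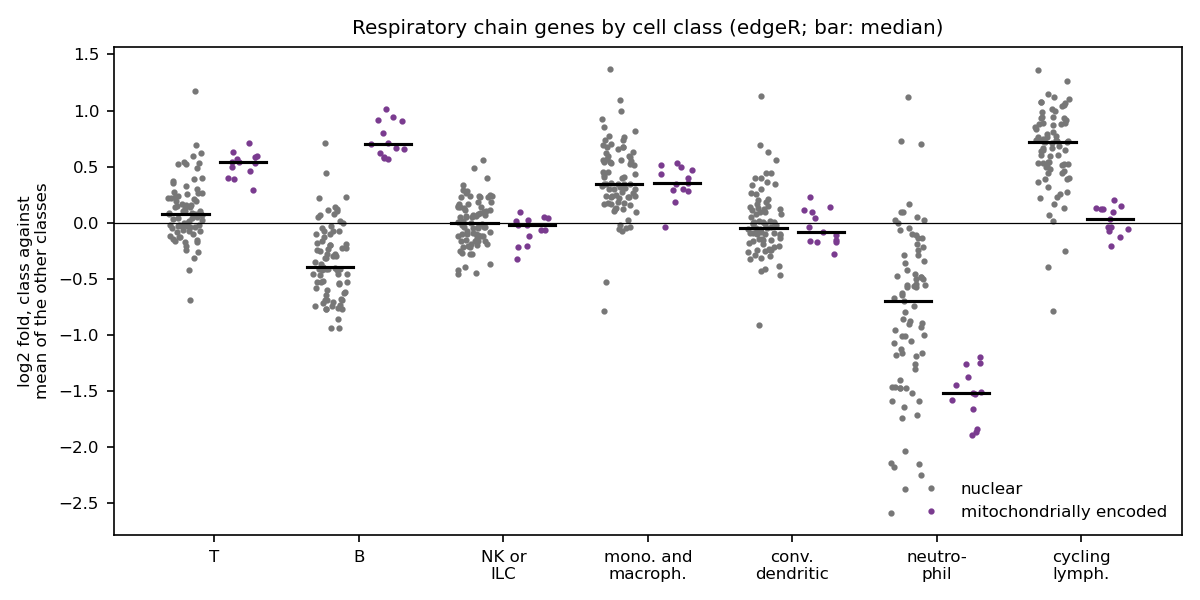
Log2 difference of each tested respiratory chain gene between a class and the mean of the other classes (y axis, edgeR) in 7 classes (x axis); each point is 1 gene, grey for nuclear and purple for mitochondrially encoded, with a bar at the median. Neutrophil-like cells lie low for both genomes (-0.70 and -1.52), B cell-like cells split downward for nuclear and upward for mitochondrial genes, and cycling cells are raised for nuclear genes (0.72) but not for mitochondrial ones (0.03).

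B cell-like cells were split by genome. All 13 mitochondrial genes were higher, at a median log2 difference of 0.70, and 47 of 79 nuclear genes were lower and 2 higher, at a median of -0.40 (34.6% of all genes were higher and 23.2% lower). Lower nuclear genes were found in every complex, with 21 of 37 complex I, 4 of 8 complex III, 9 of 11 complex IV and 11 of 17 complex V genes lower. mt-Nd5, a proton-pumping core subunit of complex I, was at 828, 891, 1040 and 950 CPM against 533 in the other classes, with a log2 difference of 1.01 (SE 0.11, edgeR adjusted p = 3.5e-10). Ndufb9 was at 89.9, 92.3, 99.1 and 88.3 CPM against 196, a difference of -0.94 (SE 0.12). Uqcrq, a small complex III subunit, was at 151, 141, 129 and 118 CPM against 276, also -0.94 (SE 0.12). The B cell-like libraries held to one side of the mean of the other classes for these 3 genes, and Control and KO libraries overlapped in Ndufb9 but not in mt-Nd5 or Uqcrq.

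Monocyte and macrophage-like cells had more of both genomes, with 60 members higher and 1 lower (30.3% and 16.7% of all genes). By complex, 22 of 37 nuclear complex I, 7 of 8 complex III, 8 of 11 complex IV and 11 of 17 complex V genes were higher, and 11 of 13 mitochondrial genes. Ndufs8, which carries iron-sulphur clusters in complex I, was at 110, 123, 129 and 113 CPM against 63.0 elsewhere, a log2 difference of 1.09 (SE 0.13, edgeR adjusted p = 3.0e-09). Ndufc2, a membrane-arm subunit, followed at 213, 204, 231 and 188 CPM against 130 (0.99, SE 0.11), and Ndufaf7 at 37.1, 46.1, 49.0 and 34.7 CPM against 19.3 (1.37, SE 0.18). All 4 libraries stood above the mean of the other classes for each of them. The annotation types Ndufb1-ps (0.93, SE 0.11) as a lncRNA at a shared promoter, not as protein coding. The 1 lower gene, the assembly factor Ndufaf2, had 12, 11, 12 and 2 UMIs and reversed to 0.68 without Control 2. Among cells of 1000 to 3000 UMIs, where the comparison holds fewer classes, the count fell to 23 higher and 6 lower.

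T cell-like cells had all 13 mitochondrial genes higher, at a median of 0.54, and 17 of 79 nuclear genes higher and 3 lower, at a median of 0.08, the median of all genes (30.5% of all genes were higher and 21% lower). Ndufaf4, a complex I assembly factor, was at 35.4, 44.8, 43.9 and 37.0 CPM against 22.3 (1.17, SE 0.15, edgeR adjusted p = 1.5e-08). Cox7a2l, which links complexes III and IV into supercomplexes, was at 172, 302, 277 and 353 CPM against 188 (0.69, SE 0.10). For Cox7a2l the value of Control 1 lay below the mean of the other classes, and the other 3 libraries above it. In cells of 1000 to 3000 UMIs 62 members were higher and 1 lower. NK-like cells were near the mean of the classes, with 3 members higher and 5 lower (19.2% and 14.5% of all genes). Ndufa5, a complex I subunit, was the furthest at 214, 143, 132 and 141 CPM against 102 (0.56, SE 0.14). The NK count was sensitive: it was 17 with cells named by clusters, 22 among cells of 1000 to 3000 UMIs, and 5, 4 and 2 without Control 1, KO 1 and KO 2. Conventional dendritic-like cells had 6 members higher and 2 lower (16.3% and 9.31% of all genes), led by Ndufc2 at 219, 202, 191 and 155 CPM against 133 (0.69, SE 0.15), and 3 calls in all without Control 1.

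Lists of neighbouring pathways are given by counts, to be read against the shares of all genes called in each class (26.7% higher and 17.7% lower in cycling, 22.2% and 24.6% in neutrophil-like, 34.6% and 23.2% in B cell-like, 30.5% and 21% in T cell-like cells). In cycling cells 5 of 6 genes for complex II, cytochrome c1 and cytochrome c were higher, 9 of 13 genes of the tricarboxylic acid cycle, and 5 of 16 glycolytic genes with 1 lower, the last close to the share of all genes. In neutrophil-like cells 3 of those 6, 7 of 13 (1 higher) and, among genes for mitochondrial transcription and RNA handling, 6 of 8 tested were lower, while 12 of 16 glycolytic genes were higher and 0 lower in edgeR or DESeq2, with 0 lower at an unadjusted p below 0.05. Higher glycolytic genes were not particular to them: monocyte and macrophage-like cells had 11 of 16 higher and 1 lower (30.3% and 16.7% of all genes). B cell-like cells had 14 of 16 glycolytic genes lower. Of 8 genes of mitochondrial transcription and RNA handling 5 were higher in T cell-like and 5 in B cell-like cells. Among those higher in B cell-like cells was Tfam, which packages mitochondrial DNA and starts its transcription. It was at 50.2, 51.8, 55.4 and 52.4 CPM in B cell-like cells (log2 difference 1.75, SE 0.18), and had 1 UMI or none per library in neutrophil-like cells. Regulators of respiratory chain genes stayed mixed, with 3 of 7 higher in B cell-like and 1 higher and 1 lower in neutrophil-like cells. Assembly factors outside the rule were higher in 9 of 20 tested in T cell-like cells, and 4 higher and 6 lower in B cell-like cells, where both counts were near or under the shares of all genes. Genes induced by dissociation also moved with the classes: of 15, all 15 were lower in cycling cells and 12 higher and 1 lower in monocyte and macrophage-like cells, with 9 higher and 3 lower in neutrophil-like cells. Of 4 haemoglobin genes 4 were higher in NK-like and 3 in B cell-like cells, of 3 hepatocyte genes tested 3 were higher in neutrophil-like and 3 lower in cycling cells, and of 3 nuclear retained RNAs 2 were higher and 1 lower in neutrophil-like cells. The part of these in the class differences was not tested.

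Nuclear respiratory factor 1 (NRF1) is a transcription factor known to act on many nuclear respiratory chain genes, through a palindromic site. The promoter table of RefSeq (GRCm38.p6, 250 bases before a gene's start to 50 after it) held full-length entries for 72 of the 90 nuclear members. Only the 250 bases before the start were searched for motifs, not the 50 after it. A gene with several promoters counted once, as having a motif if any of them did. The NRF1 motif, the 10 letters in capitals in the lines below, reads the same on both strands. It occurred in 5 of these 72 members (6.94%) and in 237 of all 27025 genes with such entries (0.877%). The ETS motif CCGGAAGT stood in 4.17% of members and 3.23% of all genes, the YY1 motif AAGATGGCG in 1.39% and 0.710%, and TATAAA in 9.72% and 14.3%, each counted on both strands. None of the 5 promoters with the NRF1 motif held another of the motifs. The 5 matches are shown because these genes span complexes I, IV and V and both ends of the class range. Each line gives the gene's own strand from 5′ to 3′, with the motif in capitals and flanks in lower case.
Ndufaf4: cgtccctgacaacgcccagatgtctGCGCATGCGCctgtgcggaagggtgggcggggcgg
Atp5k: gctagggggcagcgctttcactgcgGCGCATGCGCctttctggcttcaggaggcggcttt
Cox6a1: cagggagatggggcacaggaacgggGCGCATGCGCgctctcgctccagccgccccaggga
Atp5g2: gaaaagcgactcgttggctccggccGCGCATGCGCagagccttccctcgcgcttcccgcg
Ndufa11: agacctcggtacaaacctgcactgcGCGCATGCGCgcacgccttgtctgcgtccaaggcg
They lie at chr4:24897945-24898004 (plus strand), chr5:108434415-108434474 (minus), chr5:115349086-115349145 (minus), chr15:102671055-102671114 (minus) and chr17:56717677-56717736 (plus), in that order. The motif starts 113, 50, 162, 42 and 60 bases before the gene's start as the RefSeq promoter table sets it. Starts in the GENCODE M21 annotation can differ: there the Atp5g2 line lies inside the gene, which spans 102662864 to 102672352. The Atp5k line overlaps its gene there, which spans 108433244 to 108434448, and most of the motif lies inside it.

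In expression these 5 genes did not move as one. In cycling cells Atp5k, a complex V subunit also called subunit e, differed by 0.99 (SE 0.11), Atp5g2 by 1.0 (SE 0.12), Ndufa11, a complex I membrane subunit, by 0.84 (SE 0.18) and Cox6a1, the common form of a complex IV subunit, by 0.59 (SE 0.14), and all 4 passed. Ndufaf4 did not (0.22, SE 0.32). In neutrophil-like cells Atp5g2, Ndufa11 (-1.48, SE 0.33, on 3, 22, 0 and 0 UMIs), Atp5k (-0.67, SE 0.16) and Ndufaf4 (1, 1, 1 and 0 UMIs) passed as lower, and Cox6a1 did not (-0.29, SE 0.19). A match of letters is a description and not a bound site.

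KO was then set against Control within each class, by edgeR on UMIs summed per library. Over 599 fits of members in 7 classes, 0 passed an adjusted p below 0.05 in edgeR and 87 had an unadjusted p below 0.05. DESeq2 also called 0, but not every member could be called by it. It gave no adjusted p for 39 of 95 members in B, 49 of 92 in NK and 4 of 93 in monocyte and macrophage-like cells. The share of all genes called was low as well: 0.669% of 11357 in T, 0.522% in B, 1.28% in NK, 1.64% in monocyte and macrophage, 0.109% in conventional dendritic, and 0.0% in neutrophil and cycling cells, and with DESeq2 0.881%, 0.191%, 0.874%, 0.285% and 0.0% in the remaining 3. The comparisons in different classes share the same 4 libraries and are not independent of each other.

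At an unadjusted p below 0.05 in edgeR, T cell-like cells had 24 of 97 members, beside 15.2% of all genes. These were 20 nuclear genes with lower and 4 mitochondrial genes with higher values in KO. Median log2 differences were -0.23 over 84 nuclear members, 0.53 over 13 mitochondrial members and -0.01 over all genes. Both KO libraries lay below both Control libraries for 40 of 84 nuclear members (18.2% of all genes) and above for 4 (28.7%). For the mitochondrial genes these counts were 0 and 8 of 13. Ndufaf3, a complex I assembly factor, had the smallest p among members, at 25.1 and 22.7 CPM in Control and 15.5 and 14.7 in KO. Its groups did not overlap, and the log2 difference was -0.70 (SE 0.15, edgeR adjusted p = 0.077). It passed in 4 of 17 alternatives, over which the adjusted p ran from 0.0064 to 0.508. Atp5j2, a complex V membrane subunit, was at 490, 428, 349 and 330 CPM (-0.48, SE 0.14, edgeR adjusted p = 0.17), and Ndufs4, a complex I subunit, at 93.3, 87.3, 70.9 and 71.4 CPM (-0.39, SE 0.12, edgeR adjusted p = 0.18). Their groups did not overlap either. The catalytic subunit mt-Co1 was at 5955, 7835, 10228 and 11068 CPM, apart by group with KO higher (0.57, SE 0.25, edgeR adjusted p = 0.31). Library choice decided the count in this class: 22 members passed without Control 2 (10 higher, 12 lower) and 2 without Control 1 (both lower), with the lone Control library then taken to vary like the KO pair.

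**Figure D3:**
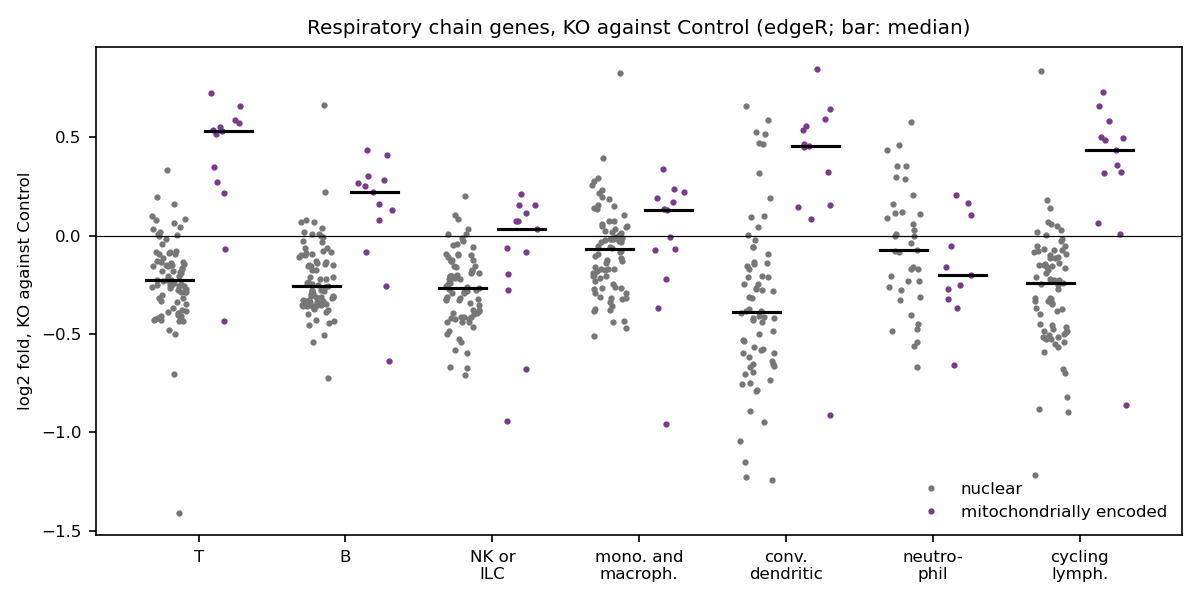
Log2 difference KO against Control (y axis, edgeR) of each tested respiratory chain gene in 7 classes (x axis); each point is 1 gene, grey for nuclear and purple for mitochondrially encoded, with a bar at the median. Medians of nuclear genes lie below 0 in all 7 classes, from -0.07 in monocyte and macrophage-like and neutrophil-like cells to -0.39 in conventional dendritic-like cells, and no gene passed the adjusted threshold.

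In B cell-like cells 29 of 95 members had an unadjusted p below 0.05 in edgeR (11% of all genes), 27 of them lower in KO. The nuclear median was -0.25 and the mitochondrial median 0.22. Of 82 nuclear members 34 had both KO below both Control libraries (12.2% of all genes) and 6 above (34.7%). Cox6c, a complex IV subunit, was at 500, 426, 383 and 325 CPM (-0.50, SE 0.16, edgeR adjusted p = 0.21), Atp5c1, the central shaft of the ATP synthase, at 156, 134, 107 and 122 CPM (-0.44, SE 0.14) and Atp5g1 at 148, 150, 114 and 129 CPM (-0.43, SE 0.13). The groups were apart in all 3 genes. Without KO 1, 3 members passed, all lower. In the same cells 3 of 4 haemoglobin genes, markers of red cells, passed as lower in KO. Their summed share was 0.189%, 0.066%, 0.003% and 0.032% of UMIs, and their part in the result was not tested.

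NK-like cells had 19 of 92 members at an unadjusted p below 0.05 in edgeR (12.7% of all genes), all lower in KO, with a nuclear median of -0.27 and a mitochondrial median of 0.04. Both KO libraries were below both Control libraries for 24 of 79 nuclear members (12.2% of all genes) and above for 5 (33.9%). Ndufc1, a small complex I subunit, was at 206, 157.2, 124 and 121 CPM (-0.67, SE 0.19, edgeR adjusted p = 0.10), Atp5g2 at 580, 445, 373 and 372 CPM (-0.60, SE 0.17, edgeR adjusted p = 0.11) and Cox7a2, a complex IV subunit, at 559, 462, 410 and 344 CPM (-0.58, SE 0.18, edgeR adjusted p = 0.12). Again Control and KO were apart. Without Control 2 there were 4 calls and without KO 1 there were 3, all lower. Other genes moved with the groups in these cells. All 4 haemoglobin genes passed as higher in KO, at summed shares of 0.008%, 0.001%, 0.376% and 0.453%. Of the hepatocyte list Fabp1 passed as higher, with the list's summed share at 0.007%, 0.004%, 0.012% and 0.012%. Ribosomal protein genes took 25%, 25.4%, 20.7% and 19.8% of UMIs. Their part in the result was not tested.

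The remaining classes showed less. Monocyte and macrophage-like cells had 1 of 93 members at an unadjusted p below 0.05 in edgeR (10.1% of all genes), mt-Atp8, and a nuclear median of -0.07; nuclear members with KO below and above Control numbered 7 and 9 of 80 (15.5% and 25.5% of all genes). Ndufs1, a complex I subunit that carries iron-sulphur clusters, was at 11.4, 15.4, 23.0 and 30.1 CPM there, higher in both KO libraries, on 8, 19, 15 and 13 UMIs (0.83, SE 0.44, edgeR adjusted p = 0.55). Ndufc1 was at 253, 204, 217 and 123 CPM (-0.47, SE 0.25, edgeR adjusted p = 0.56), with overlapping groups. Conventional dendritic-like cells had 8 of 83 (8.11% of all genes), 7 of them lower nuclear genes, and 30 of 70 nuclear members with KO below Control (16.4% of all genes) against 4 above (21.2%). Atp5g1 was at 354, 243, 87.0 and 165 CPM in them (-1.22, SE 0.41, edgeR adjusted p = 0.51), on 97, 71, 5 and 17 UMIs, and 2 members passed without KO 1. Neutrophil-like cells had 0 of 50 members at an unadjusted p below 0.05 in edgeR (7.93% of all genes) and 0 calls in DESeq2, with 6 of 39 nuclear members below and 5 above (16.3% and 22.5% of all genes). Cycling cells had 6 of 89 (7.54% of all genes), with 22 of 76 nuclear members below and 4 above (12.3% and 24.9%). Among these, Cox7a2l had the opposite direction to most, at 89.5, 146, 200.9 and 280 CPM (0.84, SE 0.34, edgeR adjusted p = 0.65), and 1 member passed without Control 1. This was Ndufab1, the carrier protein subunit of complex I, at 147, 297, 144 and 128 CPM with the 4 libraries (-0.90, SE 0.35, edgeR adjusted p = 0.65) and from -1.31 to -0.18 when a library was left out.

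Whether the KO difference of a member was different in one class than in T cell-like cells was tested by an interaction term added after seeing the data. Over 552 such fits 0 members passed in edgeR, 34 had an unadjusted p below 0.05, and the smallest adjusted p was 0.18. DESeq2 was not run on this term. Of all genes 0.125% passed in B, 0.15% in NK, 0.401% in monocyte and macrophage, 0.0626% in conventional dendritic, 0.15% in neutrophil and 0.0751% in cycling cells. Among lists around the respiratory chain, 7 gave 0 calls for KO against Control in edgeR over 438 fits, with 44 at an unadjusted p below 0.05 and 1 call, of a nuclear retained RNA, in DESeq2. They hold 6 genes of complex II and the electron carriers, 36 assembly factors outside the rule, 16 genes of mitochondrial transcription and RNA handling, 9 regulators, 13 of the tricarboxylic acid cycle, 16 of glycolysis and 3 nuclear retained RNAs, not all of them tested in each class. Of 15 dissociation stress genes 1 passed in edgeR, Hspa1b, a heat shock protein, at 728, 620, 1601 and 1076 CPM in NK-like cells (0.84, SE 0.20, edgeR adjusted p = 0.037).

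Within the mitochondrial transcripts, the makeup of several genes was ordered by replicate number. These genes are cut from long transcripts of the circular genome, with mt-Nd6 alone among the members on the other strand. mt-Atp8 and mt-Nd4l, small subunits of complex V and complex I, each sit at the head of a message shared with mt-Atp6 or mt-Nd4 and overlap it, by 43 and 7 bases, so that reads there can be split uncertainly between the members. On the mitochondrial chromosome (M, GRCm38, GENCODE M21) mt-Atp8 spans 7766 to 7969, mt-Atp6 7927 to 8607, mt-Nd4l 9877 to 10173 and mt-Nd4 10167 to 11544, all on the plus strand, and mt-Nd6 13552 to 14070 on the minus strand, where it overlaps mt-Nd5 by 14 bases. In T cell-like cells mt-Atp8 made up 1.89% and 0.65% of mitochondrial UMIs in Control 1 and 2, and 0.87% and 0.31% in KO 1 and 2. For mt-Nd4l these shares were 3.0%, 1.66%, 2.30% and 1.25%. Both libraries of replicate 1 were above both of replicate 2 in 6 of 7 classes for mt-Atp8 and in 7 of 7 for mt-Nd4l. mt-Nd6, mt-Nd5 and mt-Co1 also showed this order in 6 of 7 classes, mt-Nd3 in 4 and mt-Nd2 in 1, while mt-Nd1, mt-Co2, mt-Atp6, mt-Co3, mt-Nd4 and mt-Cytb showed it in 0 of 7. The reverse order was not counted, and as shares of the same total these values are not independent of each other. The classes also come from the same 4 libraries, so counts of classes are not independent observations. Depth was lower in replicate 1 of each group, and its part in this was not tested. The labels do not say what a replicate number stands for.

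**Figure D4:**
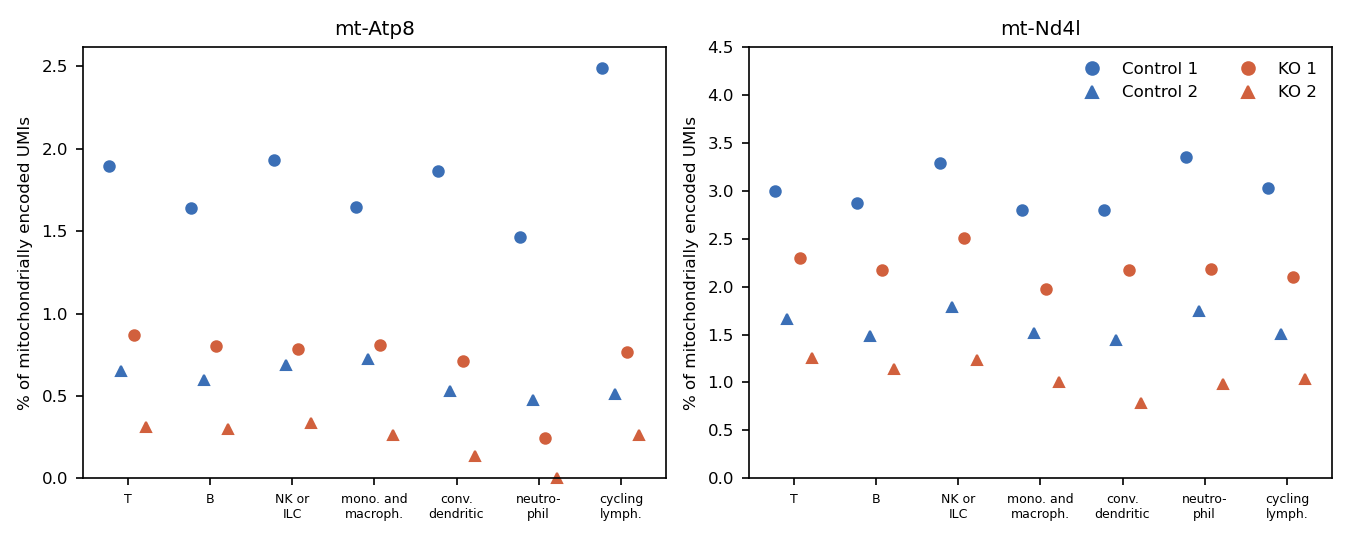
Share of mitochondrially encoded UMIs (y axis, percent) taken by mt-Atp8 (left) and mt-Nd4l (right) in the 7 tested classes (x axis); each point is 1 library, blue for Control and orange for KO, circles for replicate 1 and triangles for replicate 2. Circles lie above triangles within each group for mt-Nd4l in 7 of 7 classes, and Control 1 is the highest library throughout.

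For KO against Control, mt-Atp8 had the smallest p among members in monocyte and macrophage-like cells. In monocyte and macrophage-like cells it was at 447, 288, 272 and 116 CPM, with both KO libraries below both Control libraries. The log2 difference was -0.96 (SE 0.30, edgeR adjusted p = 0.15), and from -1.76 without KO 1 to -0.46 without KO 2. It passed in 5 of 17 alternatives there, over which the adjusted p ran from 5.1e-05 to 0.9999, with 1 call each without Control 2 and without KO 1. It passed in 6 of 16 in NK-like cells, where it was at 403, 230, 235 and 115 CPM (-0.94, SE 0.27, edgeR adjusted p = 0.11, from 7.9e-08 to 0.559 over the alternatives) and the groups overlapped. In T cell-like cells, at 426, 231, 346 and 149 CPM, it passed without Control 2 and changed sign without KO 2.

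Tissue-restricted isoforms had few UMIs. Cox7b2 and Cox8c had 0 UMIs over all barcodes, Cox8b 1, Cox4i2 3, Ndufa4l2 19 and Cox7a1, the muscle form of a complex IV subunit, 104. These 6 members passed the filter on low counts in no class, whereas 50 members passed in all 7. Cox6a2, the heart and muscle form of a complex IV subunit, was the exception (chr7, 128205435 to 128206387, minus strand, GRCm38). In plasmacytoid dendritic-like cells, blood-borne cells known for making type I interferon, it had 176, 110, 33 and 60 UMIs, or 2703, 1326, 1213 and 1597 CPM. The common form Cox6a1 was at 246, 193, 441 and 266 CPM in the same cells. T cell-like cells, the next by UMI number, had 5, 20, 6 and 7 UMIs of Cox6a2, at most 2.10 CPM, and neutrophil-like cells had none. Cox6a2 was no marker of the gate. The usual forms of the other paired subunits were well detected, as in T cell-like cells, where Cox4i1 was at 605, 665, 705 and 642 CPM, Cox6b1 at 394, 365, 317 and 298 CPM and Cox8a at 1037, 797, 732 and 671 CPM. Of these, Control and KO were apart in Cox6b1 and Cox8a (log2 differences -0.35 and -0.43, edgeR adjusted p 0.27 for both), and overlapped in Cox4i1 (0.03). Cox6b2, the testis form, had 3, 15, 8 and 13 UMIs in the same cells.

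**Figure D5:**
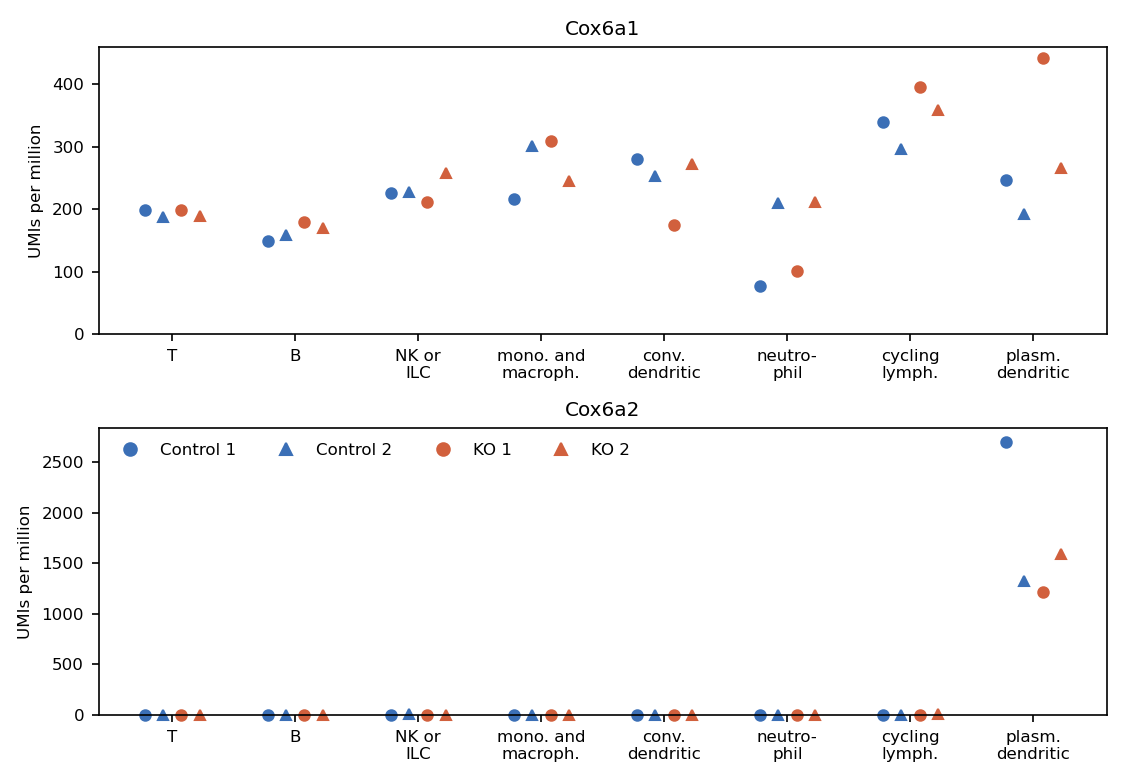
Level of Cox6a1 (top) and Cox6a2 (bottom) in CPM (y axis) in 8 cell classes (x axis); each point is 1 library, blue for Control and orange for KO, circles for replicate 1 and triangles for replicate 2. Cox6a1 is present in every class shown, while Cox6a2 lies at 1213 to 2703 in plasmacytoid dendritic-like cells and near 0 elsewhere.

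Too few cells in KO kept the plasmacytoid class from a test by gates. With cells named by clusters instead, which put 75, 68, 35 and 43 cells in that class, Cox6a2 was at 1878, 1321, 600 and 808 CPM. Both KO libraries were below both Control libraries, with a log2 difference of -1.20 (SE 0.24, edgeR adjusted p = 0.013). It was the 1 member of 89 tested that passed there, beside 1.67% of all genes. Of the 221 cells of this cluster 80 met a gate, 77.5% of them the plasmacytoid one. From gate to cluster the level of Cox6a2 went from 1213 and 1597 to 600 and 808 CPM in KO and from 2703 and 1326 to 1878 and 1321 CPM in Control, and the part of the cluster's makeup in the difference was not tested. By the gates, with fewer cells, KO 2 lay above Control 2, so the groups overlapped. In T cell-like cells the few UMIs of Cox6a2 gave -1.41 (SE 0.52, edgeR adjusted p = 0.24).

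Hepatocyte-like barcodes had nearly no mitochondrial UMIs. These 19 barcodes had a nuclear share of 8.72%, 6.07%, 8.28% and 7.5%, above every library of every other class. Of the mitochondrial genes they had 0 UMIs of 1147, 1 of 2636, 1 of 25215 and 2 of 19176. The exact 95% upper limits of that share were 0.321%, 0.211%, 0.0221% and 0.0377%. Complex V took 2.45% ± 0.163 of UMIs (SD, n = 4), complex I nuclear genes 2.15% ± 0.425 and complex IV 1.61% ± 0.202. Uqcrq of complex III was at 6975, 3414, 4164 and 4328 CPM, on 8, 9, 105 and 83 UMIs, and the ATP synthase subunit gene Atp5e at 2616, 3035, 3054 and 2764 CPM. The limit of 25% mitochondrial UMIs had taken no barcode out of this gate. Malat1, a nuclear retained RNA, was at 0%, 0.076%, 0.028% and 0.016% of UMIs in them, and at 3.49%, 2.28%, 3.46% and 2.71% in T cell-like cells. When cells were named by clusters, 5, 10, 63 and 28 barcodes fell in a hepatocyte-like cluster, and there the mitochondrial share was 5.25%, 3.02%, 1.74% and 1.66% and the nuclear share 3.93%, 3.68%, 5.17% and 5.07%. The share near 0 was seen in the barcodes that met the gate of at least 8 of 14 hepatocyte markers. Of the 106 barcodes of the cluster 41 met a gate, 46.3% of them the hepatocyte one. The part of the cluster's makeup in its higher mitochondrial share was not tested. Haemoglobin genes took 5.14% of UMIs in the KO 1 barcodes.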

How the data were processed

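The deposited matrices hold UMI counts, not normalized. The submitters' processing notes name Cell Ranger 3.1.0 and mm10. Members, lists, markers and tests were chosen with earlier results of these data known. Filters on cells were a minimum of 500 UMIs and 250 genes and a maximum of 25% mitochondrial UMIs. The last limit, which bears on the mitochondrial shares themselves, took out 11, 91, 54 and 176 cells. Scrublet (scanpy 1.11.5) called 0, 0, 1 and 84 doublets, under 0.5% in 3 libraries, so doublets were not removed in the main analysis. Cells in several gates were left out, except those in the T and natural killer gates only, which counted as T cell-like. Gates needed 2 markers, 8 for hepatocyte-like and 3 cycling markers for cycling cells. As an alternative, cells were named by Leiden clusters (resolution 1.0) with the same markers. Counts were summed per library and class and tested with edgeR 4.0.16 (TMM, filterByExpr, glmQLFit, glmQLFTest; Benjamini-Hochberg over all genes tested, threshold 0.05), without covariates for the KO comparison, and DESeq2 1.42.0 as an alternative. Named genes were the 13 mitochondrial members, the 3 nuclear members with the smallest p for KO in each class, members among the 5 largest folds past the threshold in each direction of each class contrast, isoform pairs and Cox7a2l; genes with the NRF1 motif, and Uqcrq and Atp5e in hepatocyte-like barcodes, were picked after their values were seen. Total UMIs per library were 8290677, 20537236, 17187561 and 17925516. Coordinates of genes come from GENCODE M21 (GRCm38) by gene ID, which matched 103 of 103 members, and those of promoter lines from the RefSeq promoter table. The edgeR fit for KO against Control was run on simulated counts of each class, with 200 changed genes and the same spread for every gene. It recovered 9% to 26% of the genes changed 2-fold and 57% to 80% of those changed 4-fold. A count of 0 calls therefore does not exclude 2-fold differences. The class contrasts, the interaction term and DESeq2 were not simulated.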

Additional observations from a re-analysis of the deposited data

How the results depend on the processing

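The count of members past the threshold for KO against Control was 0 in all 7 classes and stayed 0 under 97 of 117 alternative fits. It became 7, 1, 1 and 1 in T, B, NK and monocyte and macrophage-like cells with no filter on low counts, 1 in NK-like cells with clusters, 2 there among cells of 1000 to 3000 UMIs, and 1 in monocyte and macrophage-like cells (mt-Atp8) with at most 10% mitochondrial UMIs. Leaving out each library in turn gave 0 to 22 in T, 0 to 3 in B, 0 to 4 in NK, 0 to 1 in monocyte and macrophage, 0 to 2 in conventional dendritic and 0 to 1 in cycling cells.

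The replicate numbers were not taken as pairs, since the labels do not say what they mark; same-numbered deviations correlated at 0.16 in T, 0.12 in B, 0.05 in NK, 0.02 in monocyte and macrophage, 0.09 in conventional dendritic, -0.04 in neutrophil and 0.02 in cycling cells. With the replicate number as a block, 5 members passed in T (3 higher, 2 lower), 9 in B (2 higher, 7 lower), 1 in NK and 1 in monocyte and macrophage-like cells (both lower) and 0 in the others.

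Class contrasts kept their counts within 1.5 times under 99 of 109 alternatives. The exceptions were 63 in T, 22 in NK and 29 in monocyte and macrophage-like cells of 1000 to 3000 UMIs, where fewer classes could be compared, 17 in NK-like cells with clusters, 5 in NK and 5 in conventional dendritic-like cells with no filter, and, leaving out a library, 2 to 6 in NK and 3 to 8 in conventional dendritic-like cells. The log2 ratio of KO to Control shares moved by more than the replicate spread in 6 of 171 alternatives: to 0.76 (mitochondrial) and -0.60 (nuclear) in monocyte and macrophage-like cells of 1000 to 3000 UMIs, to 0.18 (mitochondrial, several-gate cells given to the strongest gate), 0.23 (mitochondrial, clusters) and 0.15 (nuclear, clusters) in neutrophil-like cells, and to -0.21 in cycling cells (nuclear) without ribosomal, haemoglobin and hepatocyte genes. Leaving out a library changed the sign of this ratio, with no move beyond that spread, for the mitochondrial sum in NK (-0.05 to 0.62), monocyte and macrophage (-0.02 to 0.52) and neutrophil-like cells (-0.39 to 0.05), and for the nuclear sum in the last 2 (-0.16 to 0.12 and -0.09 to 0.05).

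Signs reversed when a library was left out: mt-Atp8 ran from -1.16 to 0.0589 in T, from -2.34 to 0.0072 in conventional dendritic-like and from -1.76 to 0.23 in cycling cells (positive without KO 2, KO 2 and Control 1), and in T cell-like cells mt-Nd3 from -0.0025 to 0.64 and mt-Cytb from -0.0809 to 0.97 (negative without Control 1), mt-Nd4l from -0.11 to 0.50 (negative without KO 1) and mt-Nd6 from -0.46 to 0.25 (positive without Control 1, 0.0524, and without KO 2). By class Ndufaf2 in monocyte and macrophage-like cells ran from -1.13 to 0.68 (positive without Control 2). In cells of 1000 to 3000 UMIs Ndufb8 reversed in T (0.0769) and NK-like cells (0.30) and Uqcrfs1 in NK-like cells (0.18). The cause was not tested. Plasmacytoid dendritic-like cells could be tested only by clusters, and removing the highest Scrublet scores left conventional dendritic-like cells untested. Fewer members could be tested for KO in neutrophil-like (50), conventional dendritic-like (83) and cycling cells (89), with 25 to 146 cells a library, than in T cell-like cells (97).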
